A study of Mus musculus with 48 samples.

Results

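The genes described here are 9 members of the 2 pathways of lytic cell death, the inflammasome and the necrosome, taken by symbol from a table of 24973 genes. They are the sensor *Nlrp3*, the adaptor *Pycard*, the caspase genes *Casp1* and *Casp4*, the pore-forming *Gsdmd*, and the necroptosis genes *Casp8*, *Ripk1*, *Ripk3* and *Mlkl*. Male C57BL/6 mice aged 12 to 15 weeks underwent transient occlusion of the right middle cerebral artery for 1 h followed by 23 h of reperfusion, and cells were sorted from the ipsilateral (ischemic) and the contralateral hemisphere of the same animals. Endothelial cells, pericytes, astrocytes and microglia of 3 to 4 pooled mice made up each replicate, with 6 replicates for each cell type and hemisphere and 48 libraries in all. The contralateral hemisphere belongs to an animal with a stroke and is not a sham control, and only mice with a marked neurological deficit were kept. Microglia were gated as CD45low/CD11b+ cells, and the other cell types as CD45-negative cells.

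An inflammasome is a protein platform that NLRP3 builds with the adaptor ASC, encoded by *Pycard*, to switch on caspase-1. Caspase-1, and caspase-11 encoded by mouse *Casp4*, cut gasdermin D, whose fragment opens pores in the plasma membrane, and caspase-1 also matures interleukin-1β. In necroptosis RIPK1 and RIPK3 form a kinase complex that activates MLKL, which breaks the membrane, while caspase-8 restrains this route by cutting the kinases. In the brain the inflammasome is known mainly from microglia and other myeloid cells. The values below are RNA levels, and neither cleavage nor phosphorylation of these proteins was measured.

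The levels are normalized counts as deposited, and a difference is given on the scale of log2(normalized count + 1). A gene was called changed when limma's adjusted p was at most 0.05, the change was at least 1.5-fold, and all 6 libraries of one hemisphere exceeded 10 normalized counts. A pair means the ipsilateral and contralateral libraries of a cell type that carry the same replicate number. For 12 ipsilateral libraries the sample titles name pericytes where the description and the table column say microglia, or the reverse. The descriptions were used, and the markers followed them, with summed microglial markers of 405263 to 727554 in the libraries taken as ipsilateral microglia and 706 to 107546 in those taken as ipsilateral pericytes. Sorted libraries held RNA of other cells. The 10 microglial markers summed to 13034 to 87980 in endothelial replicates 1 to 4 and to 1384 to 1690 in endothelial replicates 5 and 6, with a like split in pericytes and, on the ipsilateral side, in astrocytes (10221 to 43592 against 1971 to 2452), and oligodendrocyte markers reached 35462 to 391936 in astrocyte libraries beside 41095 to 121715 for astrocyte markers. Smooth muscle markers summed to 305671 to 472420 in contralateral and 140102 to 323604 in ipsilateral pericyte libraries. Pericyte markers there summed to 44294 to 92716 and 34058 to 90625, and the part of smooth muscle RNA in the pericyte results was not tested. Column sums ran from 10549900 to 16942165 normalized counts, and the median correlation of a library with the others of its group ran from 0.798 to 0.925. In bulk samples, fewer cells of a type and less RNA per cell cannot be told apart.

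In the contralateral hemisphere the inflammasome genes were highest in microglia. *Nlrp3* ranged from 808 to 3014 normalized counts in contralateral microglia with a median of 982, against medians of 29.5 in endothelial cells, 31 in astrocytes and 0 in pericytes. No contralateral library of another cell type exceeded 118, so microglia stood apart from every other cell type. The difference from the next cell type, endothelial cells, was 6.22 ± 1.09 (SE) on the log2 scale (limma over 48 libraries, adjusted p = 5.89e-06). Endothelial cells and astrocytes did not differ beyond their spread (0.02 ± 1.09, adjusted p = 0.992), and pericytes were lower than astrocytes (adjusted p = 0.0222). In replicates 5 and 6 *Nlrp3* was 2 and 1 in endothelial cells and 8 and 6 in astrocytes. Microglial markers in these libraries were at 0.174% to 0.207% and 0.344% to 0.471% of their mean in contralateral microglia. The part of microglial RNA in the order below microglia was not tested.

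*Pycard* followed the same order at the top. It ranged from 1626 to 2273 in contralateral microglia with a median of 1829, and the medians were 104 in endothelial cells, 50 in astrocytes and 44 in pericytes. Microglia exceeded endothelial cells by 4.31 ± 0.75 on the log2 scale (limma, adjusted p = 5.87e-06), whereas neighbouring cell types below them did not differ beyond their spread (adjusted p = 0.373 and 0.87). Contralateral endothelial *Pycard* was 37 and 30 in replicates 5 and 6 and 50 to 453 in replicates 1 to 4. *Casp1* ranged from 602 to 808 in contralateral microglia and from 19 to 30 in contralateral astrocytes, and it was listed at 0 in 4 of 6 contralateral endothelial and 5 of 6 contralateral pericyte libraries. Microglia exceeded astrocytes by 4.79 ± 1.12 (adjusted p = 0.000319), and astrocytes exceeded endothelial cells by 3.31 ± 1.12 (adjusted p = 0.0118).

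*Casp4* and *Gsdmd* were also highest in microglia but reached clear levels in endothelial cells. *Gsdmd* ranged from 1252 to 2761 in contralateral microglia, from 663 to 799 in endothelial cells, from 95 to 177 in pericytes and from 16 to 211 in astrocytes. Each step of that order passed the test, by 1.38 ± 0.49 (adjusted p = 0.019), 2.56 ± 0.49 (adjusted p = 3.2e-05) and 1.64 ± 0.49 (adjusted p = 0.00478) on the log2 scale. Endothelial *Gsdmd* was 663 to 799 in replicates 1 to 4 and 712 to 719 in replicates 5 and 6. Microglial markers in these libraries were at 1.6% to 7.66% and 0.174% to 0.207% of their mean in contralateral microglia. The part of microglial RNA in the endothelial value was not tested. *Casp4* had medians of 488 in microglia, 93 in endothelial cells, 70 in pericytes and 5.5 in astrocytes, and endothelial cells and pericytes did not differ beyond their spread (1.04 ± 0.71, adjusted p = 0.268).

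Among the necroptosis genes, microglia did not stand apart from every other cell type. *Casp8* ranged from 1782 to 2168 in contralateral microglia and from 603 to 1423 in endothelial cells, a difference that missed the threshold (0.87 ± 0.44, adjusted p = 0.109), and had medians of 324 in pericytes and 74 in astrocytes. *Ripk1* had medians of 951 in microglia, 957 in endothelial cells, 722 in pericytes and 224 in astrocytes, and of these only astrocytes stood below their neighbour (1.41 ± 0.42, adjusted p = 0.00431). *Ripk3* had medians of 207 in microglia, 87 in endothelial cells and 69 in pericytes, none of which differed from its neighbour beyond the spread, although microglia exceeded pericytes (2.44 ± 0.78, adjusted p = 0.00854), and it was listed at 0 in 5 of 6 contralateral astrocyte libraries. *Mlkl*, which carries out the final step, was the one member whose mean level was highest in endothelial cells, with 34 to 172 there, 0 to 58 in pericytes, 0 to 64 in microglia and 0 to 7 in astrocytes. Endothelial cells exceeded microglia by 3.99 ± 1.16 (adjusted p = 0.0044) and were above pericytes by 2.55 ± 1.16, which missed the threshold (adjusted p = 0.0839).

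**Figure D1:**
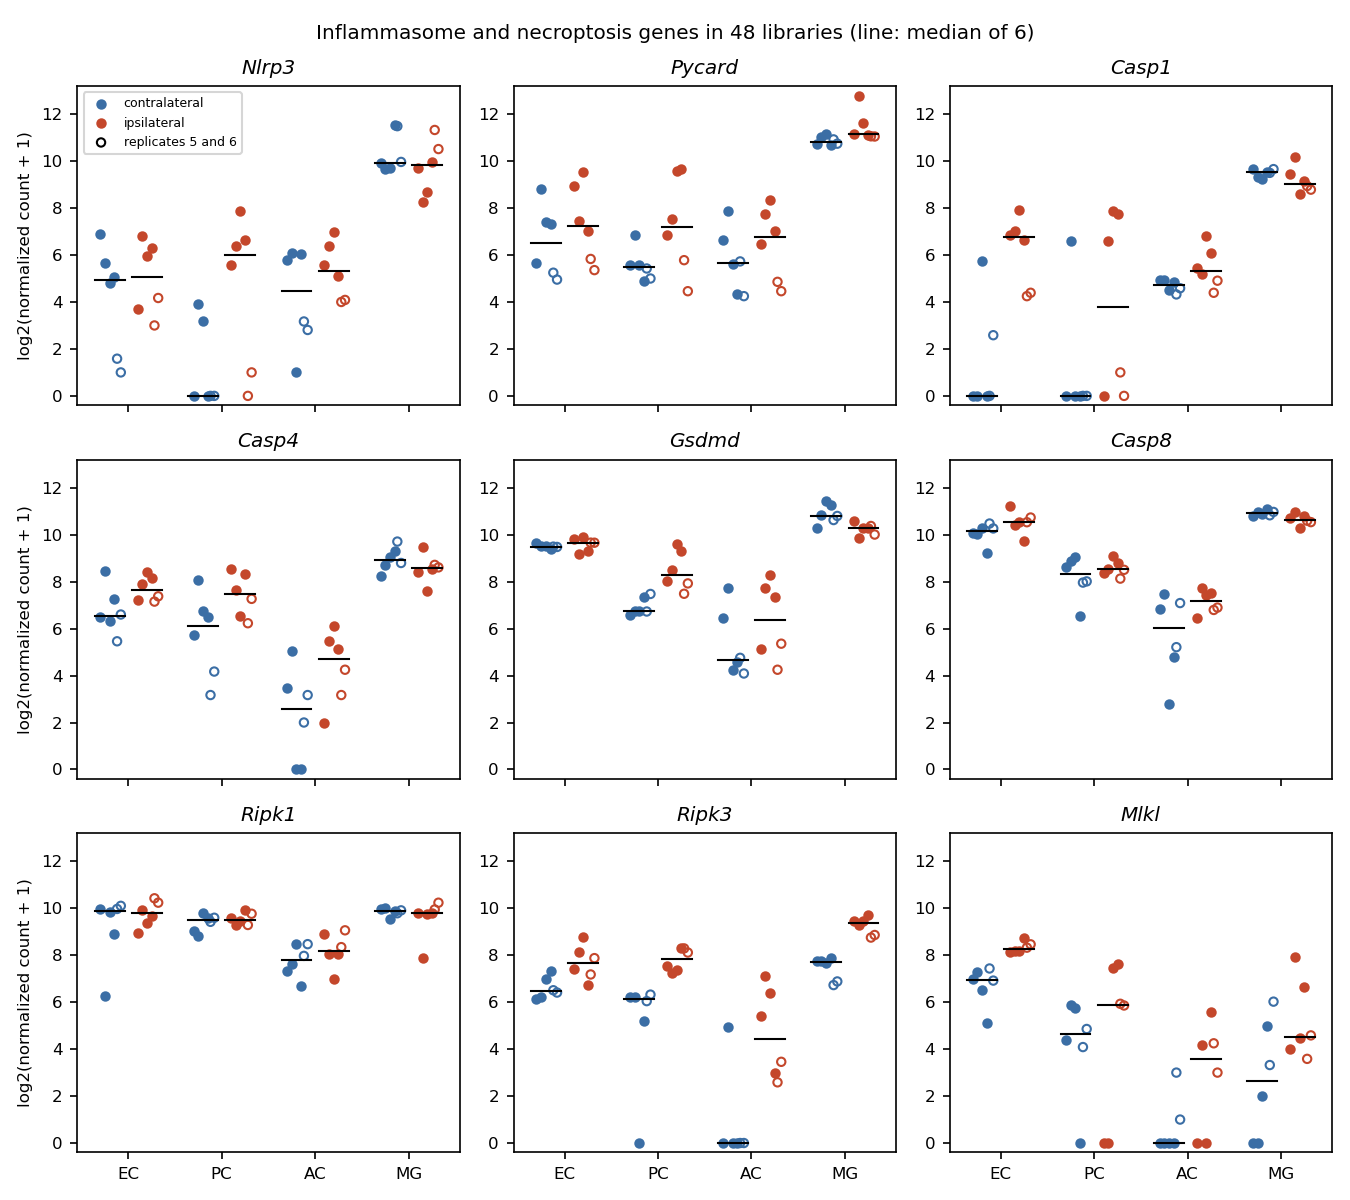
Each panel plots 1 gene in 48 libraries as log2(normalized count + 1), by cell type (EC endothelial cells, PC pericytes, AC astrocytes, MG microglia) and hemisphere, with filled points for replicates 1 to 4, open points for replicates 5 and 6, and a line at the median of 6. *Ripk3* in microglia shows no overlap between hemispheres (105 to 236 against 430 to 837), and *Mlkl* is highest in endothelial cells.

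Counted over the 9 members, the contralateral level differed between endothelial cells and pericytes for 3 members, where 34.6% of all genes tested were called. For endothelial cells against astrocytes 7 members were called (background 49.1%), for endothelial cells against microglia 6 (41.6%), for pericytes against astrocytes 8 (45.4%), for pericytes against microglia 7 (48%) and for astrocytes against microglia 8 (50.7%). All 7 members called between pericytes and microglia, and all 8 between astrocytes and microglia, were higher in microglia.

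Levels were also scaled by the joined length of all annotated exons of a gene, 3800 bases for *Pycard* and 8344 for *Ripk1*. This length can exceed that of a single transcript, and the order between genes depends on it. The mean level per kb in contralateral microglia was 818 normalized counts for *Gsdmd*, 672 for *Casp8*, 497 for *Pycard*, 481 for *Casp1*, 390 for *Nlrp3* and 142 for *Casp4*. In the same libraries it was 111 for *Ripk1*, 78.8 for *Ripk3* and 7.74 for *Mlkl*. In contralateral endothelial cells the level per kb was 381 for *Casp8*, 305 for *Gsdmd* and 50.6 for *Mlkl*, but 9.41 for *Nlrp3* and 6.35 for *Casp1*. Endothelial libraries held RNA of the pore-forming genes of both routes with little of the sensor or of caspase-1. Exons of *Ripk1* overlap *Serpinb6a* and those of *Pycard* overlap *Gm45205* on the other strand, and the library kit does not mark strand, so reads in the shared parts could not be assigned.

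The comparison of hemispheres addressed how stroke changed these genes in each cell type. *Ripk3* in microglia was the single change called among 35 combinations of member and cell type that were tested. *Ripk3* (ENSMUSG00000022221) lies on the minus strand of chromosome 14 at chr14:55784996-55788857 in GRCm38. The RefSeq promoter table gives 250 bases before its start, chr14:55788858-55789107 on the minus strand, shown because *Ripk3* carries the called change and searched for 3 motifs. They were the core of the interferon-stimulated response element (GAAA, any 2 bases and GAAA again), the STAT palindrome (TTCNNNGAA) and the kappa B motif, on both strands, and matches would stand in capitals. No match lay in this window, and 2.98%, 7.02% and 3.9% of 32851 promoters held each motif.
Ripk3: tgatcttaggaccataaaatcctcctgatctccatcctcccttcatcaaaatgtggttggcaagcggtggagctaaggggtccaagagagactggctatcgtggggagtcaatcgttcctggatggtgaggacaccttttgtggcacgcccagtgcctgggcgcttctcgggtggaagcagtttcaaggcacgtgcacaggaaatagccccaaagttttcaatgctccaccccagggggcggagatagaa

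*Ripk3* ranged from 105 to 236 normalized counts in contralateral microglia with a median of 207, and from 430 to 837 in ipsilateral microglia with a median of 660. All 6 pairs were higher on the ipsilateral side and the groups did not overlap. The change was 1.81 ± 0.26 on the log2 scale (limma, adjusted p = 0.00094; with the replicate block, adjusted p = 0.000357). Leaving out each replicate gave 1.77 to 1.86 with adjusted p between 0.00113 and 0.00834, and replicates 1 to 4 alone gave 1.72 (adjusted p = 0.00414). In a fit of all 48 libraries, which shares one spread over cell types, the same change missed the threshold (adjusted p = 0.172). Of the 9 members 1 was called in microglia, where 10.6% of all genes were called (13.3% with the block), and 1 had groups that did not overlap, against 8.56% of all genes. Summed monocyte markers also moved in these libraries, from 316 to 1431 contralaterally to 1602 to 4226 ipsilaterally without overlap, while the microglial markers went from 744023 to 868835 down to 405263 to 727554, and their part in the result was not tested. The median change of all genes tested in microglia was -0.18, and rescaling within the cell type gave 1.87 for *Ripk3*.

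*Ripk3* was also higher in the ipsilateral libraries of the other cell types, without passing the threshold there. In pericytes it was 0, 36, 65, 73, 74 and 79 contralaterally and 151 to 318 ipsilaterally with a median of 230, with no overlap and all 6 pairs higher. The change of 2.81 ± 0.93 missed the threshold (limma, adjusted p = 0.162; with the block, adjusted p = 0.096) but passed it in the fit of all 48 libraries (adjusted p = 0.0402), and without replicate 3 it was 1.9. The 2 pericyte pairs of replicates 5 and 6 had 312 and 276 ipsilaterally against 65 and 79 contralaterally. Microglial markers in these ipsilateral libraries were at 0.124% to 0.164% of their ipsilateral microglial mean, and the part of microglial RNA was not tested. In endothelial cells *Ripk3* was 70 to 159 contralaterally and 104 to 440 ipsilaterally (1.09 ± 0.40, adjusted p = 0.279). In astrocytes it was listed at 0 in 5 of 6 contralateral libraries and at 5 to 139 ipsilaterally, with 6 of 6 pairs higher (3.83 ± 1.09, adjusted p = 0.239; with the block, adjusted p = 0.0335). With fixed replicate terms limma's adjusted p was 0.0392, and in the fit of all 48 libraries it was 0.00575. *Ripk3* did not meet the expression rule in astrocytes, so it was not called in any of these fits.

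**Figure D2:**
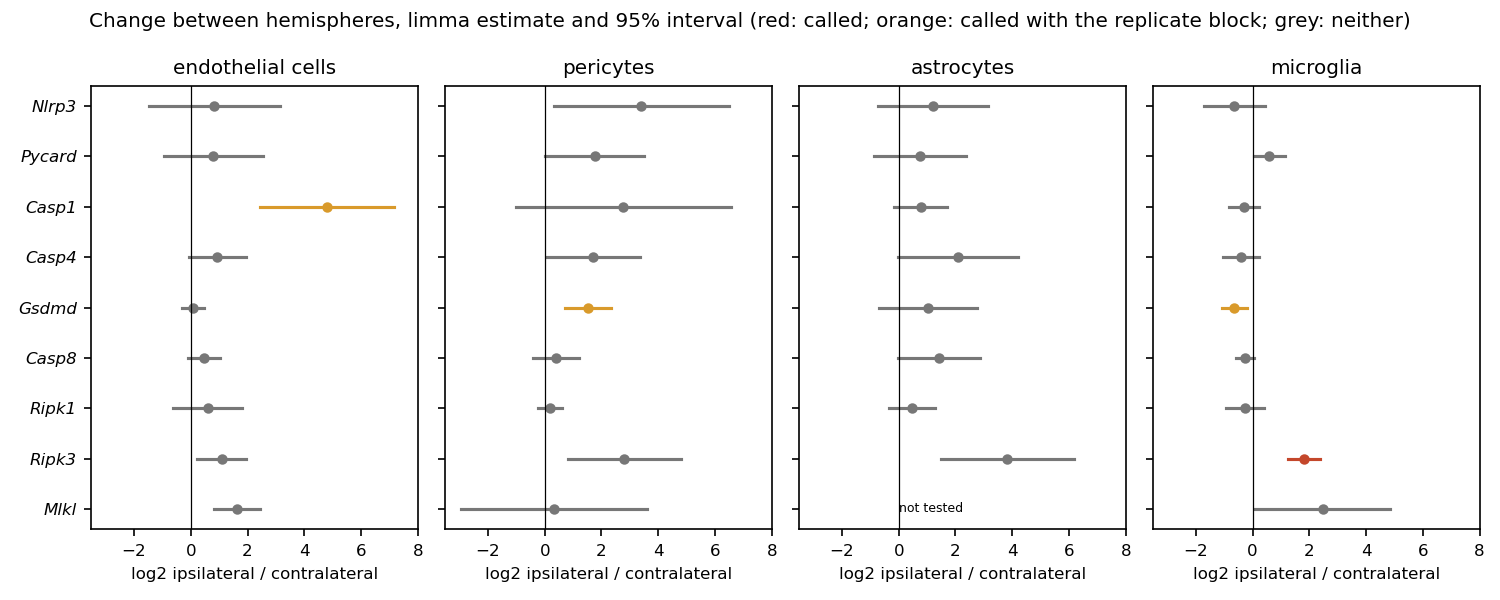
Points give limma's log2 change (ipsilateral over contralateral, 6 pairs) and lines its 95% interval for each member in each cell type; red marks a called change, orange a change called with the replicate block alone, and grey neither. *Ripk3* in microglia, at 1.81, is the one red point.

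*Mlkl*, the substrate of RIPK3, was higher in ipsilateral endothelial cells in every pair. It ranged from 34 to 172 contralaterally with a median of 122, and from 283 to 430 ipsilaterally with a median of 305, so the groups did not overlap. The change of 1.63 ± 0.38 nevertheless missed the threshold after adjustment (limma, adjusted p = 0.0873; with the block, adjusted p = 0.0524), passed it with the microglial marker sum as a covariate (adjusted p = 0.0479), and missed it with fixed replicate terms (adjusted p = 0.131), in the fit of all 48 libraries (adjusted p = 0.597) and with each replicate left out (adjusted p = 0.077 to 0.299). In endothelial cells 1 of 9 members had groups that did not overlap, beside 2.06% of all genes. In microglia *Mlkl* was 0 to 64 contralaterally and 11 to 244 ipsilaterally, which overlapped (2.48 ± 1.11, adjusted p = 0.161). In pericytes the direction of its change depended on the setting, and in astrocytes it was below the mean of 10 normalized counts needed for a test.

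*Casp1*, which cuts gasdermin D and pro-interleukin-1β, was 0, 0, 0, 0, 5 and 52 in contralateral and 18, 20, 99, 116, 129 and 243 in ipsilateral endothelial cells. All 6 pairs were higher, though the groups overlapped through the contralateral library at 52. The change was 4.80 ± 1.10 (limma, adjusted p = 0.0767) and passed the threshold with the replicate block (adjusted p = 0.0431), with the microglial marker covariate (adjusted p = 0.0404) and in the fit of all 48 libraries (adjusted p = 0.014), but not with the replicate number as fixed terms (adjusted p = 0.0665). Its size rested on the pseudocount, with 2.57 for a pseudocount of 10 and 7.03 for 0.1. Ipsilateral *Casp1* was 15.9% to 39% of its microglial mean in replicates 1 to 4 and 2.89% to 3.21% in replicates 5 and 6, where the microglial markers were at 2.54% to 15.5% and 0.244% to 0.259%. In replicate 2 these markers went from 7.66% to 7.2% of the microglial mean of the same hemisphere while *Casp1* went from 0 to 129. In the other pairs that percentage rose, in replicate 3 from 3.39% to 15.5% while *Casp1* went from 52 to 243. With the marker covariate the change was 4.68, and the part of microglial RNA was not tested further. Neutrophil markers summed to 2539 to 11276 in ipsilateral endothelial replicates 1 to 4 and to 369 to 1853 contralaterally, and their part in the result was not tested.

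In endothelial cells none of 9 members was called (background 0.491%) and 1, *Casp1*, was called with the block (background 0.785%), while 3 had an unadjusted p under 0.05, as did 11.9% of all genes. *Gsdmd*, high in these cells, was 663 to 799 contralaterally and 570 to 954 ipsilaterally, a change of 0.08 with a 95% interval from -0.31 to 0.48. *Casp8* was higher in 6 of 6 endothelial pairs, with 603 to 1423 against 845 to 2371, but overlapped (0.47 ± 0.26, adjusted p = 0.513). *Casp4*, *Nlrp3*, *Pycard* and *Ripk1* had changes of 0.59 to 0.93 with adjusted p from 0.463 to 0.823. The median over the 9 members was 0.83, beside -0.03 for all genes tested.

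*Gsdmd*, which forms the pore of pyroptosis, had higher values in ipsilateral pericytes. It was 95 to 177 in contralateral pericytes with a median of 108 and 178 to 770 in ipsilateral pericytes with a median of 311, higher in all 6 pairs and without overlap. The change was 1.53 ± 0.37 (limma, adjusted p = 0.0713), and it passed the threshold with the replicate block (adjusted p = 0.0364) but not with fixed replicate terms (adjusted p = 0.073). The pairs of replicates 1 to 4 averaged 1.99 and those of replicates 5 and 6 averaged 0.60, and ipsilateral microglial markers were at 4.03% to 19% and 0.124% to 0.164% of the microglial mean in these 2 sets of libraries. With the microglial marker sum as a covariate the change was 1.34 (adjusted p = 0.0879), and the part of microglial RNA was not tested further.

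The upstream inflammasome genes *Nlrp3* and *Pycard* in pericytes had higher ipsilateral values in replicates 1 to 4 than in replicates 5 and 6, and *Casp1* did so in 3 of these 4 libraries. Ipsilateral *Nlrp3* was 47, 83, 231 and 98 in replicates 1 to 4 and 0 and 1 in replicates 5 and 6, and contralateral *Nlrp3* was 0 to 14. Ipsilateral *Pycard* was 116, 186, 764 and 807 in replicates 1 to 4 and 54 and 21 in replicates 5 and 6, and ipsilateral *Casp1* was 0, 96, 236 and 213 and then 1 and 0. In replicate 2 *Casp1* was 96 in both hemispheres, and it was 0 in the other contralateral libraries. In ipsilateral replicates 1 to 4 microglial markers summed to 22851 to 107546, against 706 to 929 in replicates 5 and 6. Monocyte markers there summed to 790 to 8807 against 15 to 22, and border macrophage markers to 1428 to 5333 against 209 to 240. Neutrophil markers summed to 137 to 14611 against 57 to 155. The changes were 3.40 ± 1.44 for *Nlrp3* (adjusted p = 0.279), 1.76 ± 0.82 for *Pycard* (adjusted p = 0.324) and 2.77 ± 1.77 for *Casp1* (adjusted p = 0.483). With the microglial marker sum as a covariate they were 1.90, 0.97 and 1.22 (adjusted p = 0.284, 0.428 and 0.725). The part of RNA of these other cells in the changes was not tested further.

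**Figure D3:**
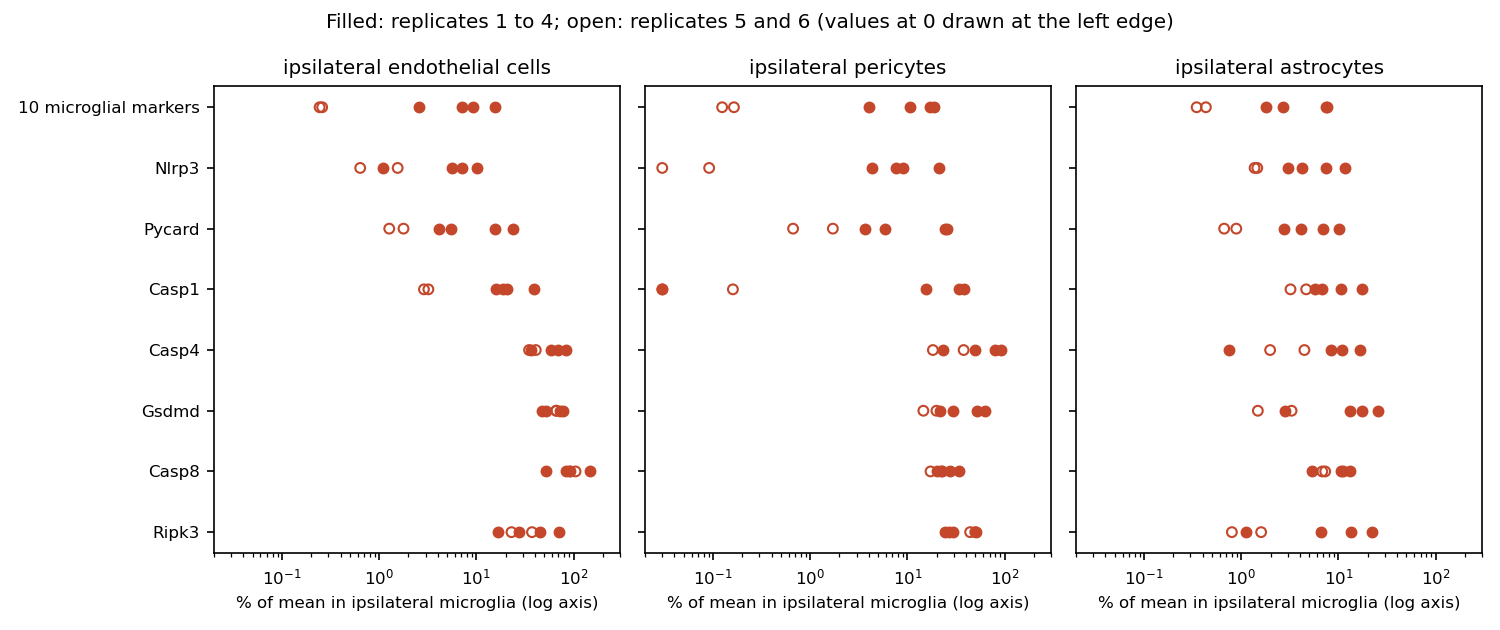
Points give each ipsilateral library's value as a percentage of the mean in ipsilateral microglia, on a log axis, for the sum of 10 microglial markers and for 7 of the 9 genes in endothelial cells, pericytes and astrocytes. In pericyte replicates 5 and 6 (open points) the markers are at 0.124% to 0.164% and *Nlrp3* at 0% to 0.0911%, while *Ripk3* is at 44.2% to 49.9%.

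*Casp4*, the gene for caspase-11, was also lower in replicates 5 and 6 than in replicates 1 to 4 on the contralateral side. The pairs of replicates 5 and 6 were nevertheless higher ipsilaterally, by 3.06 and 3.10 on the log2 scale, as were 2 of the 4 other pairs. Ipsilateral pericytes held 74 and 153 normalized counts in replicates 5 and 6 against 8 and 17 contralaterally, and 93 to 375 in replicates 1 to 4 against 52 to 268. The change of 1.71 ± 0.76 missed the threshold (limma, adjusted p = 0.302). *Casp4* and *Casp1* are neighbours on the plus strand of chromosome 9, at chr9:5308849-5336783 and chr9:5298517-5307265, and *Casp4* is shown because its upstream window held 2 overlapping matches to the kappa B motif, printed in capitals. The window covers chr9:5308599-5308848 in GRCm38 (RefSeq). Among the other members' windows, 1 of *Nlrp3* held a kappa B match and 1 of *Ripk1* held 2 STAT palindromes, and those of *Pycard*, *Casp1*, *Casp8* and *Mlkl* held no match to the 3 motifs.
Casp4: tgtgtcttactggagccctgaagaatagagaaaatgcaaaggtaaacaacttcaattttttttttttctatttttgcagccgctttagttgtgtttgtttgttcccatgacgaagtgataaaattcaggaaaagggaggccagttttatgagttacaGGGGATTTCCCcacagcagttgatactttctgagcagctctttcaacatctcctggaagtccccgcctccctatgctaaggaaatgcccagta

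In pericytes none of 9 members was called (background 1.02%), 1, *Gsdmd*, was called with the block (background 2.12%), and 2, *Gsdmd* and *Ripk3*, had groups that did not overlap (background 1.93%). An unadjusted p under 0.05 was found for 5 members and for 15.4% of all genes, and the median change was 1.71 over the members and -0.04 over all genes. *Ripk1*, at 455 to 882 contralaterally and 619 to 969 ipsilaterally, had a change of 0.17 with a 95% interval from -0.25 to 0.60.

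In astrocytes none of 8 members tested was called, with or without the block (backgrounds 0.341% and 1.42%), and none had groups that did not overlap (background 0.898%). An unadjusted p under 0.05 was found for 1 member, *Ripk3*, and for 9.28% of all genes. All 8 had estimates above 0, with a median of 1.12 beside -0.06 for all genes. Replicate 3, in which the microglial markers went from 0.675% to 7.45% of their microglial mean, had log2 differences of 6.00 for *Nlrp3*, 6.11 for *Casp4*, 4.05 for *Gsdmd*, 4.61 for *Casp8* and 6.39 for *Ripk3*. In the same pair *Pycard*, *Casp1* and *Ripk1* differed by 2.72, 2.27 and -1.46. Replicate 1, in which the markers went from 2.81% to 1.8%, had 5.39 for *Ripk3*, 1.56 for *Ripk1* and 0.47 for *Casp1*. There *Nlrp3*, *Pycard*, *Casp4*, *Gsdmd* and *Casp8* differed by -1.46 to -0.17. With the marker sum as a covariate the 8 estimates ran from 0.50 for *Ripk1* to 3.72 for *Ripk3*, and none was called. The part of microglial RNA in these differences was not tested further. *Casp1* was higher in 6 of 6 pairs, at 19 to 30 against 20 to 110 (0.77 ± 0.44, adjusted p = 0.642), and *Casp8* was 6 to 176 against 87 to 213 (1.43 ± 0.67, adjusted p = 0.542).

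None of the 5 inflammasome members was called in microglia without the block. *Gsdmd* was 1252 to 2761 contralaterally with a median of 1796 and 933 to 1529 ipsilaterally with a median of 1242, lower in 5 of 6 pairs. The change of -0.64 ± 0.20 missed the threshold (limma, adjusted p = 0.0527) and passed it with the replicate block (adjusted p = 0.0373), although not with fixed replicate terms (adjusted p = 0.0728) or after rescaling within the cell type (-0.58, adjusted p = 0.0772). *Nlrp3* was 808 to 3014 against 307 to 2568 (-0.64 ± 0.50, adjusted p = 0.417). *Casp1* was lower in 5 of 6 pairs (-0.30 ± 0.24, adjusted p = 0.426).

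*Pycard* was higher in 6 of 6 microglial pairs, at 1626 to 2273 against 2117 to 6942, with a change of 0.59 ± 0.26 that missed the threshold (adjusted p = 0.151). The library at 6942, ipsilateral replicate 2, also had the highest neutrophil marker sum of its group, 22650, and the lowest *Ripk1*, 234. Its column sum of 16942165 was the highest of the 48 libraries, and its median correlation with its group, 0.845, was the lowest there. The part of these in its values was not tested. *Casp8* was lower in 6 of 6 pairs, at 1782 to 2168 against 1238 to 1980 (-0.28 ± 0.14, adjusted p = 0.22). Over the 9 members 3 estimates were above 0 and 6 below it, and 4 had an unadjusted p under 0.05, as did 28% of all genes.

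Whether the change itself differed between cell types was tested in the fit of all 48 libraries, and no member passed in any of 6 contrasts. The background was 0.0267% of genes for endothelial cells against pericytes, 0.06% for endothelial cells against astrocytes, 0.273% for endothelial cells against microglia, 0.00667% for pericytes against astrocytes, 0.727% for pericytes against microglia and 0.293% for astrocytes against microglia. An unadjusted p under 0.05 was found for 1, 2, 1, 0, 3 and 3 members in that order. The smallest adjusted p was that of *Gsdmd*, whose change was larger in pericytes than in microglia by 2.17 ± 0.69 on the log2 scale (adjusted p = 0.134, with the block adjusted p = 0.0971). For *Casp1*, endothelial cells exceeded microglia by 5.10 ± 1.58 (adjusted p = 0.188).

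The 6 lists of other genes of these pathways held 82 genes, all of them in the table. Among other inflammasome sensors and adaptors, 2 of 8 tested fell in microglia, where 6.27% of all genes were called lower and 4.29% higher, namely *Aim2*, a sensor of cytosolic DNA, from 664 ± 154 to 408 ± 98 (SD, n = 6; -0.71, limma, adjusted p = 0.0477), and *Naip6*, of the family that detects bacterial proteins, from 232 ± 70 to 94.5 ± 33.2 (-1.34, adjusted p = 0.0178). Both were lower in 6 of 6 pairs. No gene of this list was called in endothelial cells, pericytes or astrocytes (backgrounds 0.491%, 1.02% and 0.341%). The median change of the list in microglia was -0.81 beside -0.18 for all genes.

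Among the partners of NLRP3 priming and activation, 3 of 12 fell and 1 rose in microglia, beside the same 6.27% and 4.29% of all genes. With the block a further gene, *Card6*, was called lower (-1.16, limma, adjusted p = 0.0396, against 0.0539 without it). *P2rx7*, the ATP-gated channel that triggers NLRP3, fell from 2312 ± 158 to 1216 ± 219 (-0.94, limma, adjusted p = 0.00167). *Txnip*, a thioredoxin-binding protein, fell from 12918 ± 1994 to 5832 ± 2082 (-1.21, adjusted p = 0.00356), and *Gbp7*, a guanylate-binding protein, by 0.90 on the log2 scale (adjusted p = 0.0215). *Ifi204*, an interferon-inducible DNA sensor, rose from 189 ± 106 to 556 ± 136 (1.68, adjusted p = 0.00518).

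In the list of caspase substrates and rupture proteins, *Il1rn*, the antagonist of the interleukin-1 receptor, rose in microglia from 134 ± 45.9 to 6323 ± 3573 normalized counts (5.42, limma, adjusted p = 1.43e-06) and in astrocytes from 8.17 ± 9.89 to 515 ± 612 (5.81, adjusted p = 0.0466). It was higher in 6 of 6 pairs in both cell types. In the astrocyte libraries it ranged from 30 to 1577 ipsilaterally, and summed monocyte markers there were 4 to 1029 contralaterally and 219 to 2185 ipsilaterally, whose part in the result was not tested. Among the necroptosis triggers and RHIM proteins, *Zbp1*, a sensor that engages RIPK3, rose in microglia from 43.8 ± 25.3 to 136 ± 86.6 (1.62, adjusted p = 0.046), and *Tnfrsf1a*, the receptor TNFR1, rose in pericytes from 2520 ± 292 to 4032 ± 529 (0.68, adjusted p = 0.0265) in 6 of 6 pairs. These were 1 of 12 genes of the list in each cell type, beside 4.29% of all genes called higher in microglia and 0.441% in pericytes. With the block *Tlr3* (-0.93, adjusted p = 0.0421) and the phosphatase gene *Ppm1b* (-0.75, adjusted p = 0.0406) were called lower in microglia, and *Tnfrsf1a* was called higher in astrocytes (0.99, adjusted p = 0.021). Of the 21 genes of the TNF receptor complex and brakes on cell death none was called in any cell type, with or without the block. Of the 14 apoptotic caspases and Bcl2 family genes, *Bbc3*, which encodes PUMA, fell in microglia from 280 ± 94.4 to 95 ± 55 (-1.84, adjusted p = 0.0491), beside 6.27% of all genes called lower there.

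The genes whose levels followed each member most closely over the 48 libraries were ranked by Pearson's r of log2 values among 15003 genes. The libraries share cell type, so r reflects mainly differences between cell types and is given as a description. Those for *Nlrp3* included *Havcr2* (0.941) and *Gpr84* (0.939), and those for *Pycard* included *Ctsz* (0.953) and *Bcl2a1a* (0.946). *Gsdmd* was closest to *Sp140* (0.940), *B2m* (0.925) and *Fes* (0.918), and *Casp8* to *Clic1* (0.935), *Sp140* (0.919) and *Ecscr* (0.918). *Casp1* was closest to *Eya4* (0.926), *Csf2ra* (0.887) and *E230029C05Rik* (0.885), and *Casp4* to *Arpc2* (0.888), *Bst2* (0.880) and *Ier3* (0.880). The necrosome genes had lower values, with *Ptbp1* (0.858), *Arnt* (0.834) and *Kctd20* (0.832) for *Ripk1*, *Map3k8* (0.851), *Acsl5* (0.848) and *Arpc1b* (0.843) for *Ripk3*, and *Irf7* (0.774), *Pecam1* (0.765) and *Tmem88* (0.746) for *Mlkl*. Between members r was 0.85 for *Pycard* and *Nlrp3*, 0.90 for *Casp8* and *Gsdmd*, and -0.07 for *Mlkl* and *Nlrp3*.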

How the data were processed

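RNA of sorted cells was amplified with a SMART-Seq kit and sequenced as single reads. The authors trimmed reads with Trimmomatic 0.38, mapped them with STAR 2.6.1d on GRCm38, assigned them to genes by featureCounts 1.6.3, dropping reads that fit several genes, and normalized the counts with DESeq2 1.18.1. The deposited values, normalized counts given as whole numbers, were treated as a score, so no count test was run. The depth of each library is not recorded in them. In 5 of 48 libraries the gaps between low values showed what 1 read was worth (1.09 to 2.37 normalized counts), and in the others the pattern was unclear.

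Tests were made here with limma 3.58.1 (R 4.3.3) on log2(value + 1), two-sided, with a trend and Benjamini-Hochberg adjustment over all genes with a mean of at least 10, in 12 libraries for each cell type. Levels and changes were compared between cell types in a fit of 48 libraries. The fit was also run on simulated counts in which only genes with a mean of at least 50 were changed. That simulation held no pairing, replicate effect or RNA of other cells, and does not cover members at low counts. Each replicate was a pool of mice from which both hemispheres were taken, and libraries with the same number were treated as a pair, although the sources do not state that the numbers of the 2 hemispheres match. Deviations from the group means correlated at 0.12 to 0.37 on average in same-numbered libraries and at -0.07 to -0.02 in others, and over 0.1 in 14 of 24 pairs. Values with this block are given where they change a call of a member or of a list gene named in the text. Exon lengths are from GENCODE vM21 (GRCm38), and promoters from RefSeq (GRCm38.p6), where 8 of 9 members matched. *Gsdmd* was not matched.

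The members and lists were chosen with earlier results of these data known. The 9 members are named in full, with list genes called in a cell type, at most 6 per list and cell type, and the 3 most alike genes, of which 1 each for *Nlrp3* and *Pycard* is not reported here. Other pseudocounts, filters, scalings, blocks, covariates and left-out replicates were tried, of which fixed replicate terms were chosen after seeing the data. Summaries were made with Python 3.11.15, pandas 2.3.3 and numpy 2.4.6.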

Additional observations from a re-analysis of the deposited data

Results flagged for a closer look

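In 12 cases among 72 combinations of member, cell type and hemisphere, 1 library lay apart from the 5 others of its group by Dixon's criterion. The criterion was applied to normalized counts without a log, and its nominal rate of about 5% holds for normally distributed values. Some of these groups are skewed or mostly at 0, so that rate is no measure of chance here. Of the 12 cases, 10 were in replicate 2. *Pycard* was 453 in contralateral endothelial cells, 116 in contralateral pericytes, 232 in contralateral astrocytes and 6942 in ipsilateral microglia of replicate 2. Replicate 2 also held *Casp4* at 352 in contralateral endothelial cells and 32 in contralateral astrocytes, *Casp1* at 96 in contralateral pericytes, *Gsdmd* at 211 and *Ripk3* at 30 in contralateral astrocytes, and *Ripk1* at 234 in ipsilateral microglia. In contralateral endothelial cells, pericytes and astrocytes, replicate 2 had the highest sum of microglial markers, at 62456, 46262 and 53200. Its median correlation with its group was 0.798, 0.815 and 0.896 there and 0.845 in ipsilateral microglia. Column sums were 15633875 in contralateral endothelial cells and 16942165 in ipsilateral microglia of replicate 2. The part of the markers or of library quality in these values was not tested. The remaining cases were *Casp1* at 52 in contralateral endothelial replicate 3, where the others were 0 to 5, and *Mlkl* at 7 in contralateral astrocyte replicate 5, where the others were 0 to 1.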

How the results depend on the processing

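Of 614 repeats of the members' changes under other settings, 598 kept their direction and stayed called or not called. Among them were repeats of *Ripk3* in astrocytes with limma's adjusted p under 0.05, not called because of the expression rule. The change of *Ripk3* in microglia was lost in the joint fit of 48 libraries alone, and 10 repeats gained a call. The direction turned for *Ripk1* without replicate 2 (-0.03 in endothelial cells, in a range of -0.03 to 0.91 over left-out replicates, and 0.09 in microglia, in a range of -0.40 to 0.09) and for *Mlkl* in pericytes with a pseudocount of 0.1 (-0.21), without replicate 4 (-1.15, in a range of -1.15 to 1.56) and in replicates 1 to 4 only (-0.24).

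With the replicate block the called members were 1 in endothelial cells, 1 in pericytes and 2 in microglia, and the called genes rose to 104 in endothelial cells, 288 in pericytes and 217 in astrocytes. Fixed replicate terms, chosen after seeing the data, gave 226 genes in pericytes and 242 in astrocytes. The block changed no other call of a member. The joint fit gave 1, 1 and 0 called members in endothelial cells, pericytes and microglia, and 235, 288, 89 and 827 genes in endothelial cells, pericytes, astrocytes and microglia. The microglial marker covariate gave 2 members in endothelial cells and 208, 226 and 110 genes in endothelial cells, pericytes and astrocytes. In microglia a pseudocount of 10 and a mean of at least 50 each gave 2 members. Without a filter on low values 36 genes were called in endothelial cells and 84 in pericytes, a pseudocount of 0.1 gave 34 in astrocytes and a mean of at least 50 gave 32. Replicates 1 to 4 only gave 11 genes in endothelial cells, 31 in pericytes and 787 in microglia, and 1 member whose change differed between pericytes and microglia. The cell types of the sample titles gave 7 members and 6219 genes in pericytes and 6 members and 6179 genes in microglia. Leaving out 1 replicate gave 10 to 84 genes in endothelial cells, 11 to 112 in pericytes, 12 to 61 in astrocytes and 557 to 1909 in microglia, and 1 to 2 members in microglia. The causes were not tested. Low values limit *Mlkl* in astrocytes and *Casp1* in pericytes, where many libraries are at 0.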
